A study of Homo sapiens with 15 samples.

Results

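MYC and 43 genes of ribosome biogenesis were followed across 5 human cell lines of the ARPE19 lineage. The 44 genes were taken by symbol from the deposited table of read counts per gene, and all 44 were among its 15510 genes and passed the filter on low counts that left 13599 genes for testing. They were chosen by name, as genes of a pathway, with earlier results of these data known. By role they are MYC itself, 6 genes of RNA polymerase I transcription, 7 of the small nucleolar ribonucleoproteins (snoRNPs), 11 of small-subunit assembly, 14 of large-subunit assembly and 5 other nucleolar genes. The genes lie on 18 chromosomes. Each line was sequenced as 3 libraries from poly(A) RNA, and each replicate came from a separately thawed vial that was passaged 2 times, so p-values measure the spread between thaws of 1 line.

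ARPE19 is an established line of human retinal pigment epithelium and was sequenced untransfected. The libraries labelled T53D4 are described as ARPE19 carrying hTERT and p53DD, a dominant-negative p53, together with cyclin D1 and the CDK4 mutant CDK4R24C. The other 3 lines add to this set H-RasV12 (RasV12), MEK-DD (MekDD) or myr-HA-Akt (AKTmyr), which are activated forms of RAS, of the MAPK kinase MEK and of AKT. Transformation was recorded by the submitters as present in RasV12 and AKTmyr, weak in MekDD and absent from the remaining pair. All 5 were grown attached to plastic in the same medium with serum. H-RasV12, MEK-DD and myr-HA-Akt are each represented by 1 transfected line, so the effect of each of these constructs and the particulars of its line cannot be told apart.

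MYC is a transcription factor that pairs with MAX on a short DNA motif, the E-box, and is known as a driver of cell growth. Among its best-known targets are the genes that build ribosomes: RNA polymerase I transcribes the precursor of ribosomal RNA in the nucleolus, snoRNPs guide its modification and first cleavages, and large sets of assembly factors process and export the small and the large subunit. ERK signalling below RAS and MEK and mTOR signalling below AKT are both known to feed into this programme.

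To see how often the members carry the E-box, promoters of 300 bases (250 before and 50 after the start of transcription) were read for the 36 members found in RefSeq's GRCh38.p14 table. MYC, TCOF1, NOLC1, NOP58, RRP12, BOP1, RRS1 and RRP1B had no entry. The canonical E-box CACGTG, which reads the same on both strands, was present in 13 of the 36 promoters (36.1%), against 7.43% of all 27305 promoters of the table and 9.86% of the 10900 that matched a tested gene. A related motif, CACGCG on either strand, was present in 22.2% of the members' promoters, against 11.4% and 17.9%. In 12 of the 13 the E-box began between 10 bases before and 28 bases after the start. EBNA1BP2 was the exception, with its E-box beginning at -237. The 13 stretches of 30 bases centred on the E-box follow, on the strand of the gene, with the E-box in capitals. Apart from the motif, the flanks differ from gene to gene.
MYBBP1A (chr17:4555340-4555369, minus strand): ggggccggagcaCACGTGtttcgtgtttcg
FBL (chr19:39846356-39846385, minus strand): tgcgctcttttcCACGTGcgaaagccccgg
RRP9 (chr3:51941892-51941921, minus strand): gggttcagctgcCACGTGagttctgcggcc
UTP20 (chr12:101280083-101280112, plus strand): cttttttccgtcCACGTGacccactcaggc
WDR43 (chr2:28894658-28894687, plus strand): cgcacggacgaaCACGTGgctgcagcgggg
BYSL (chr6:41921515-41921544, plus strand): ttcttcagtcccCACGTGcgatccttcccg
PNO1 (chr2:68157885-68157914, plus strand): ggtgcagctgcgCACGTGtttcagccggca
PES1 (chr22:30591880-30591909, minus strand): tccttggcagggCACGTGcgggaggaagtg
NOC3L (chr10:94362903-94362932, minus strand): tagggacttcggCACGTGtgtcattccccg
NLE1 (chr17:35142274-35142303, minus strand): ctctttctcctcCACGTGgggacgcaggat
MRTO4 (chr1:19251807-19251836, plus strand): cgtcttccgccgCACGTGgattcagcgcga
EBNA1BP2 (chr1:43172790-43172819, minus strand): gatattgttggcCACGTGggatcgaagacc
PUS7 (chr7:105522226-105522255, minus strand): gtcgctgcgccgCACGTGtgcgagcccggc
The motif is described as letters in a sequence, and binding was not measured here.

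The libraries held 20.63 M to 46.55 M reads on genes, and the lowest count of any member in any library was 92 reads. The construct rows bear on the labels. Reads of the p53DD row averaged 70.7 CPM (read counts scaled to library size) in the libraries labelled T53D4 and 0.00977 CPM in ARPE19. Those of the CCND1 and CDK4R24C rows averaged 146 and 92.2 CPM in the libraries labelled T53D4, 193 and 70.7 CPM in ARPE19, 2350 and 2380 CPM in RasV12, and 858 and 1006 CPM in AKTmyr. The libraries labelled T53D4 were therefore at about the level of the untransfected line for both of these constructs, and MekDD (270 and 142 CPM) was close to it, although these rows may also take reads of the cell's own genes. A difference of RasV12 or AKTmyr from the libraries labelled T53D4 or from MekDD therefore goes with a difference in these 2 constructs, and the 2 cannot be told apart. The same holds for RasV12 against AKTmyr, as both rows were higher in RasV12. The hTERT and p53DD rows varied as well. MekDD averaged 454 and 32.3 CPM for them, against 879 and 70.7 CPM for the libraries labelled T53D4. AKTmyr averaged 633 and 58.4 CPM, and RasV12 1244 and 111 CPM. The part of these construct levels in the members' values was not tested. Of the retinal pigment epithelium markers, KRT8, KRT18, TJP1, OTX2 and MITF averaged 27.5 CPM or more in every line. RPE65, which defines the mature tissue, averaged 0 to 0.101 CPM. TYR, SLC16A8 and MERTK averaged at most 0.552 CPM in any line, and TTR, DCT and CRX were not in the table. These markers differed between lines: the summed level of the 15 markers in the table was 2631 to 2704 CPM in ARPE19, 1726 to 2125 CPM in the libraries labelled T53D4, 975 to 1144 CPM in RasV12, 1282 to 1570 CPM in MekDD and 1488 to 2177 CPM in AKTmyr. KRT8 and KRT18 made up most of each sum, at 1681 and 650.5 CPM in ARPE19 and 609.7 and 206.1 CPM in RasV12. OTX2 did not follow the sums, at 64.9 CPM in ARPE19, 69.3 CPM in RasV12 and 94.2 CPM in AKTmyr.

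MYC was the 8th most abundant of the 44 transcripts per length of exon, at 33.8 FPKM (CPM divided by exon length in kilobases) over the 15 libraries, and the others ran from 382 FPKM for NPM1, a nucleolar chaperone, to 1.88 FPKM for PPAN. The MYC level was highest in the libraries labelled T53D4, at 233, 214 and 189 CPM (replicates 1, 2 and 3). ARPE19 had 233, 173 and 154 CPM. MekDD had 154, 157 and 160 CPM, and RasV12 had 139, 150 and 109 CPM. AKTmyr was lowest at 87.4, 97.2 and 73.6 CPM, and its 3 libraries lay below the 12 libraries of the other lines. In the order T53D4, ARPE19, MekDD, RasV12, AKTmyr, the means were 212 ± 21.9, 187 ± 41.2, 157 ± 2.62, 133 ± 21.5 and 86.1 ± 11.9 CPM (SD, n = 3 each). ARPE19 overlapped both the libraries labelled T53D4 above it and MekDD below it, while MekDD and RasV12, neighbours whose libraries did not overlap, did not pass the test (log2 difference -0.24 ± 0.17, edgeR quasi-likelihood test, Benjamini-Hochberg adjusted p = 0.377).

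The order of the other 43 genes was a different one. Expressed as log2 difference from each gene's mean over the 15 libraries, their median was 0.29 in RasV12, 0.12 in the libraries labelled T53D4, 0.09 in MekDD, -0.03 in ARPE19 and -0.49 in AKTmyr. AKTmyr was thus last for both MYC and the ribosome biogenesis genes, but RasV12 came first for the latter and 4th of 5 for MYC. RasV12 did not lead within replicate 3. The median of the 43 genes there was 0.18 in RasV12, 0.18 in the library labelled T53D4 and 0.20 in ARPE19. Of the 44 genes, 43 had their lowest line mean in AKTmyr, where 27.9% of all tested genes did, and the exception was PPAN, lowest in RasV12. Within replicate numbers, AKTmyr was the lowest of the 5 lines in all 3 for 36 of 44 genes, against 12.9% of all tested genes. RasV12 had the highest mean for 28 of the 44 (29.8% of all genes) and was highest in all 3 replicate numbers for 13 (13.3% of all genes). A level in CPM is a share of a library's reads, so fewer transcripts per cell and a change in the total RNA of the cells cannot be told apart in these bulk libraries.

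**Figure D1:**
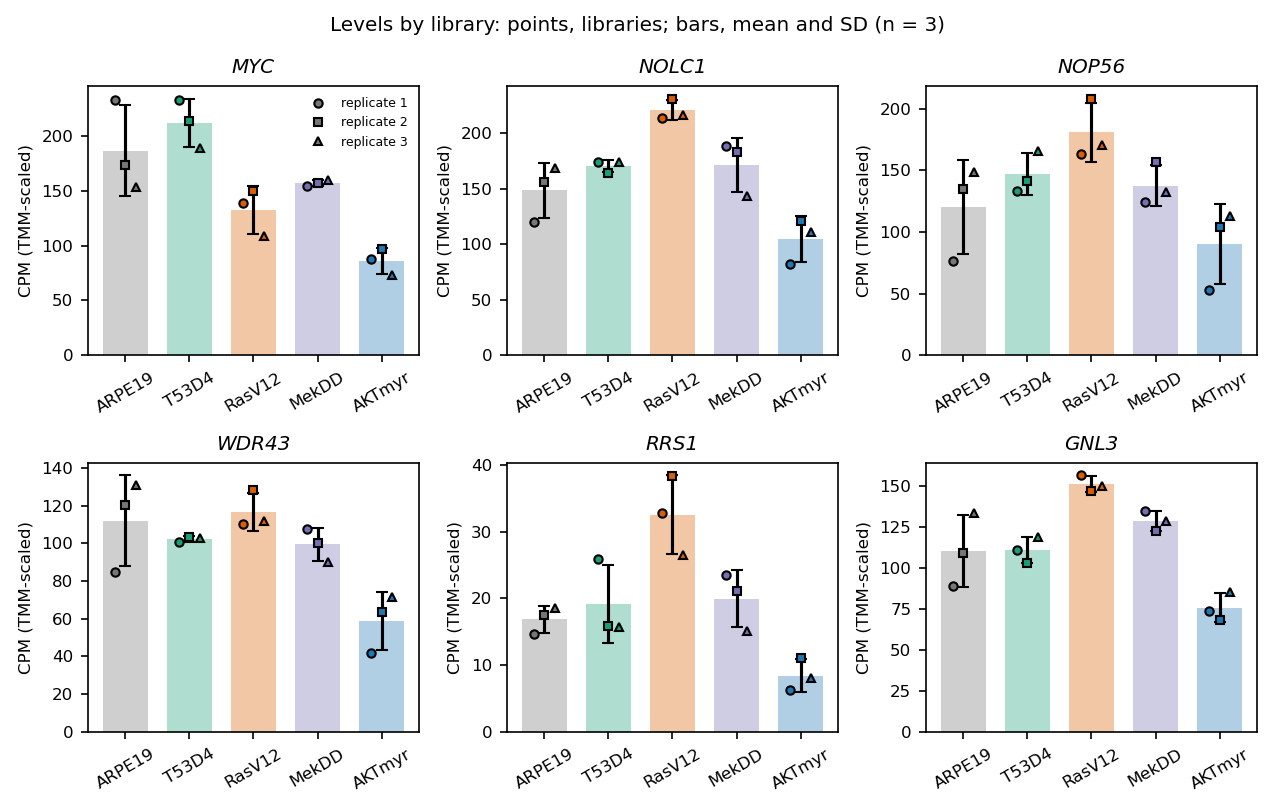
Level in CPM (vertical axis, from 0) of MYC and 5 ribosome biogenesis genes in each of the 5 lines (horizontal axis). Points are libraries, with a symbol for each replicate number, and bars are means with SD (n = 3); AKTmyr has the lowest mean in each panel, and RasV12 has the highest mean in the 5 panels other than that of MYC.

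**Figure D2:**
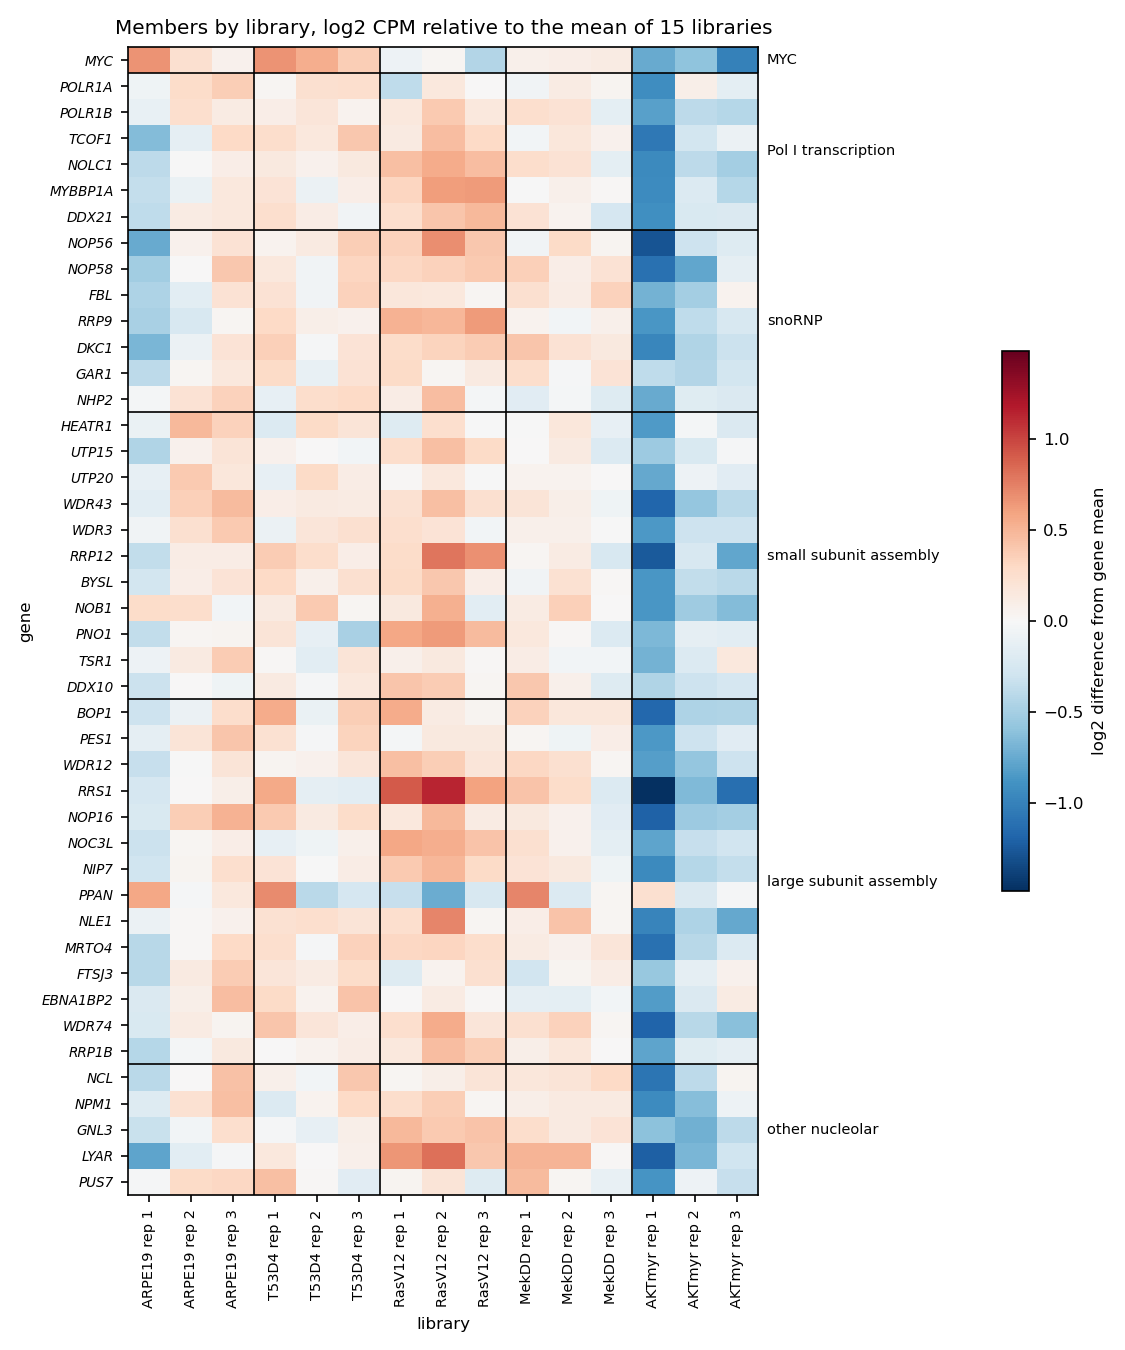
Each row is a gene, grouped by role, and each column a library; colour is the log2 difference of the gene's CPM from its mean over 15 libraries. The 3 AKTmyr columns are blue in most rows, most deeply in replicate 1, and PPAN breaks the pattern.

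The libraries labelled T53D4 were compared with ARPE19 for the effect of the shared set of constructs, although by the construct rows these libraries differ from ARPE19 in hTERT and p53DD and hardly in cyclin D1 or CDK4R24C. None of the 44 passed the test in either direction with edgeR, where 0.0368% of all genes were called higher and 0.118% lower. DESeq2 called 0 as well, and 1 gene, the snoRNP protein gene RRP9, had an unadjusted p under 0.05. The median log2 fold change of the 44 was 0.12, against 0 over all genes. Within replicate numbers it was 0.49 in the first and -0.03 and -0.05 in the others, and the ARPE19 library of replicate 1 had a low median for the 43 genes (-0.31 from the all-library mean). MYC differed by 0.18 ± 0.17 (log2, SE; adjusted p = 0.755). The largest values by role were 0.39 for TCOF1, the nucleolar factor treacle, 0.37 for RRP9, 0.28 for the small-subunit export factor RRP12, 0.32 for BOP1, a large-subunit processing factor, and 0.37 for LYAR.

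The AKT line had the lowest expression of this programme. Against the libraries labelled T53D4, 24 of the 44 genes were lower in AKTmyr and 0 higher, where 10.2% of all genes were called lower and 9.91% higher. All 44 estimates were below 0, with a median log2 fold change of -0.59 against -0.01 over all genes. At an unadjusted p under 0.05 there were 37 members, beside 4656 of all 13599 genes in either direction. DESeq2 called 26 members lower, beside 1623 of all 13599 genes. With the replicate number as a block the count was 39, where 17.9% of all genes were called lower. The libraries of the 2 lines did not overlap for 32 of the 44 genes, all lower in AKTmyr, as for 18.5% of all genes.

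MYC fell by 1.30 ± 0.17 on the log2 scale, a level 0.407 times that of the libraries labelled T53D4 (adjusted p = 0.000288), and by 1.41, 1.14 and 1.36 within replicates 1, 2 and 3. It stayed below the threshold when any of the 6 libraries was left out. Among the ribosome biogenesis genes the steepest estimate was that of RRS1, which takes part in loading the 5S particle onto the large subunit (chromosome 8). Its level was 25.9, 15.9 and 15.7 CPM in the libraries labelled T53D4 and 6.22, 11.1 and 8.04 CPM in AKTmyr, groups that did not overlap. RRS1 fell by 1.18 ± 0.25 (adjusted p = 0.00608), though its exons share a span with an unnamed gene on the same strand, so some reads may belong to that gene. Without all libraries of replicate 1 the RRS1 value was -0.70 and was not called (adjusted p = 0.0767, range over the alternatives 0.000172 to 0.0767).

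Large-subunit assembly counted 9 of 14 genes lower, with a median of -0.65. NLE1 (chr17:35128730-35142304, minus strand), which binds the AAA ATPase that matures the pre-60S particle, had 35.9, 36.5 and 34.95 CPM in the libraries labelled T53D4 and 15.5, 22.4 and 18.2 CPM in AKTmyr. Each AKTmyr library was well below each of the others, and NLE1 fell by 0.94 ± 0.18 (adjusted p = 0.00316). WDR74, NOP16 and BOP1 fell by 0.94, 0.99 and 0.95, and WDR74 shares part of its span with TEX54 on the same strand. Without all libraries of replicate 1 the BOP1 value was -0.58 and was not called (adjusted p = 0.0579, range over the alternatives 0.000964 to 0.0579). WDR12, the partner of BOP1 and PES1 in the PeBoW complex, fell by 0.65, a call that was lost without AKTmyr replicate 1 (adjusted p = 0.0510, the highest over the alternatives, the lowest being 0.00170). PPAN stood at 5.61 CPM in the libraries labelled T53D4 and 5.25 CPM in AKTmyr (log2 fold change -0.10 ± 0.31, adjusted p = 0.861); it is the least abundant member per length and shares its span with the readthrough gene PPAN-P2RY11, so its count is uncertain.

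Small-subunit assembly counted 5 of 11 lower, with a median of -0.43. NOB1 (chr16:69741871-69754926), the nuclease that makes the last cut of 18S ribosomal RNA, had 66.0, 78.3 and 61.0 CPM in the libraries labelled T53D4 and 33.0, 41.5 and 38.6 CPM in AKTmyr. It fell by 0.86 ± 0.17 (adjusted p = 0.00416), a call lost without all libraries of replicate 1 (adjusted p = 0.0515, the highest over the alternatives, the lowest being 8.66e-05). RRP12, BYSL and WDR43 fell by 0.94, 0.73 and 0.80. PNO1, which works beside NOB1 on the same precursor, had 20.3, 16.3 and 12.7 CPM in the libraries labelled T53D4 and 11.2, 16.2 and 15.96 CPM in AKTmyr. The 2 groups overlapped, with a log2 fold change of -0.19 ± 0.19 (adjusted p = 0.518).

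Pol I transcription counted 3 of 6 lower. POLR1B, the second-largest subunit of the polymerase, fell by 0.64 ± 0.15 (adjusted p = 0.00838, from 0.000766 to 0.0502 over the alternatives, the last without all libraries of replicate 1), whereas POLR1A, the largest, had -0.44 ± 0.21 (adjusted p = 0.163). With the replicate block POLR1A was called (adjusted p = 0.0178, range over the alternatives 0.0178 to 0.532). NOLC1 (chr10:102152176-102163871), a nucleolar phosphoprotein that tethers snoRNPs, had 174, 164 and 174 CPM in the libraries labelled T53D4. In AKTmyr it had 82.1, 121 and 112 CPM. These did not overlap, and NOLC1 fell by 0.70 ± 0.16 (adjusted p = 0.00873).

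The snoRNP genes counted 4 of 7 lower, with a narrow range from -0.76 to -0.50. NOP58, a core protein of the box C/D particles, and GAR1, one of the box H/ACA particles, fell by 0.76 and 0.50 (adjusted p = 0.0354 and 0.0332). Both calls were near the threshold: each was lost in 5 of 7 settings with libraries left out (without AKTmyr replicate 1 or 2, T53D4 replicate 1 or 3, or all of replicate 1) and with only the 2 lines compared, with adjusted p from 0.00615 to 0.147 for NOP58 and from 0.0148 to 0.130 for GAR1. The box C/D methyltransferase FBL, picked here for its abundance after its values were seen, had -0.53 ± 0.20 (adjusted p = 0.0717, 0.0579 with DESeq2 and 0.0173 with the block). Of the other nucleolar genes GNL3 (nucleostemin) and LYAR were lower. LYAR fell by 0.76 ± 0.23 (adjusted p = 0.0340). The LYAR call held without AKTmyr replicate 3 but was lost in the other 6 of 7 settings with libraries left out and with only the 2 lines compared (adjusted p from 0.0139 to 0.149), and the value was -0.50 without all libraries of replicate 1. PUS7, a pseudouridine synthase, had -0.52 ± 0.22 (adjusted p = 0.114). The abundant nucleolar proteins NPM1 and NCL, also picked after their values were seen, had log2 fold changes of -0.56 and -0.57 (adjusted p = 0.0826 and 0.122, 0.0599 and 0.106 with DESeq2, 0.0239 and 0.0184 with the block). NPM1 has near-identical processed copies in the genome, so its count is uncertain.

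**Figure D3:**
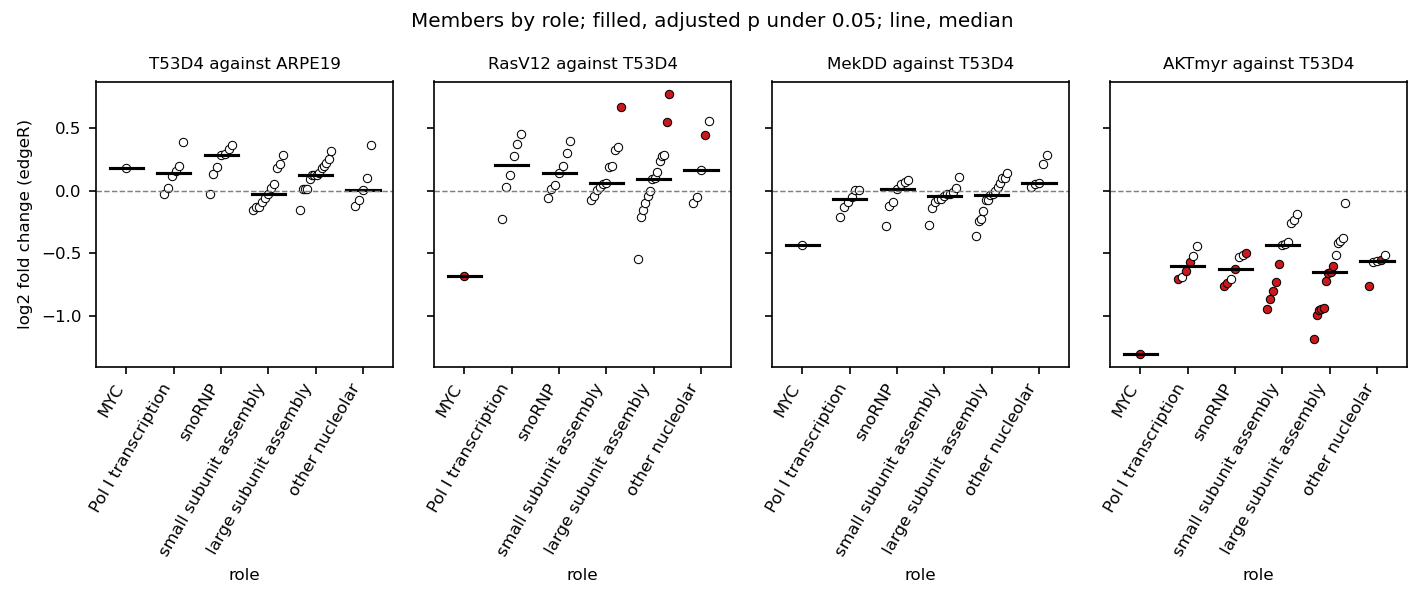
Each point is a gene, with its log2 fold change from the edgeR fit on the vertical axis and its role on the horizontal axis, in 4 comparisons. Filled points have an adjusted p under 0.05 and the short line is the median of the role; in AKTmyr against T53D4 every point is below 0, with 24 filled.

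The members' wider pathways were lower too, in lists that were also chosen with earlier results of these data known. In AKTmyr against the libraries labelled T53D4, 18 of 47 other small-subunit assembly genes, 17 of 49 other large-subunit assembly genes and 6 of 13 other snoRNP genes were called lower, and 0 higher in each list. Their medians were -0.39, -0.43 and -0.40. The counts of this paragraph are to be read beside the 10.2% of all genes called lower and 9.91% called higher. With the replicate block the small-subunit list had 27 lower, the large-subunit list 31, the snoRNP list 7 and the Pol I machinery list 9. The share of all genes called lower with the block was 17.9%. Of 20 other genes listed as Pol I machinery 5 were lower: POLR1C, POLR1E, POLR1G, PPRC1 and UBTF. PPRC1, though in this list, is known as a transcriptional coactivator rather than a factor of Pol I transcription. POLR1C, a subunit shared by polymerases I and III, fell by 0.99 from 26.6 to 13.4 CPM (adjusted p = 0.000544), and UBTF, the upstream binding factor of ribosomal DNA, fell by 0.37. EIF6, which keeps immature large subunits from joining small ones, fell by 0.81, and UTP14A by 0.89. Of 21 genes of the exosome and related processing, EXOSC2, EXOSC4, EXOSC5 and EXOSC7 were lower, and NOL3, better known as an inhibitor of apoptosis, was higher by 0.83. Among 22 MYC targets outside the ribosome pathway 9 were lower and 0 higher; GART and IMPDH2, enzymes of purine synthesis, fell by 0.79 and 0.78, and TFAM, a mitochondrial DNA packaging factor, by 0.76.

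The members were also described by their promoters, with no test between the groups. In AKTmyr against the libraries labelled T53D4 the 13 members with CACGTG changed by a median of -0.56 on the log2 scale, from -0.94 to -0.19, and 7 were called lower. The 23 with a promoter but no CACGTG also had a median of -0.56, from -0.99 to -0.10, and 11 were called lower. The 8 members without an entry in the promoter table, MYC among them, had a median of -0.85, and 6 were called lower. In RasV12 against AKTmyr the medians were 0.82, 0.72 and 0.93 in the same order.

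The size of the AKTmyr difference varied with the replicate number. Cell-cycle genes also differed most in replicate 1 but little in replicate 3, where the members' difference stayed close to that in replicate 2. Within replicates 1, 2 and 3 the median log2 difference of the 44 genes was -1.09, -0.43 and -0.48, while that of the 16 proliferation genes (MKI67, TOP2A, the MCM genes and others) was -0.81, -0.48 and -0.06. Of that list MCM2 and MCM7 were called lower, and 5 genes with the replicate block, where 10.2% and 17.9% of all genes were. The summed level of the proliferation list was 1877 to 3556 CPM in AKTmyr and 2900 to 3660 CPM in the libraries labelled T53D4. Without AKTmyr replicate 1 there were 13 members lower (median -0.43), without T53D4 replicate 3 there were 15, and without all 5 libraries of replicate 1 there were 10 (median -0.45). Of 13 retinal pigment epithelium markers tested, 2 were higher and 2 lower, where 9.91% and 10.2% of all genes were. TYRP1 rose by 1.66, from 1.70 to 5.52 CPM, while SERPINF1 fell by 1.86 and PMEL by 1.49. The part of proliferation and of these markers in the difference was not tested.

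**Figure D4:**
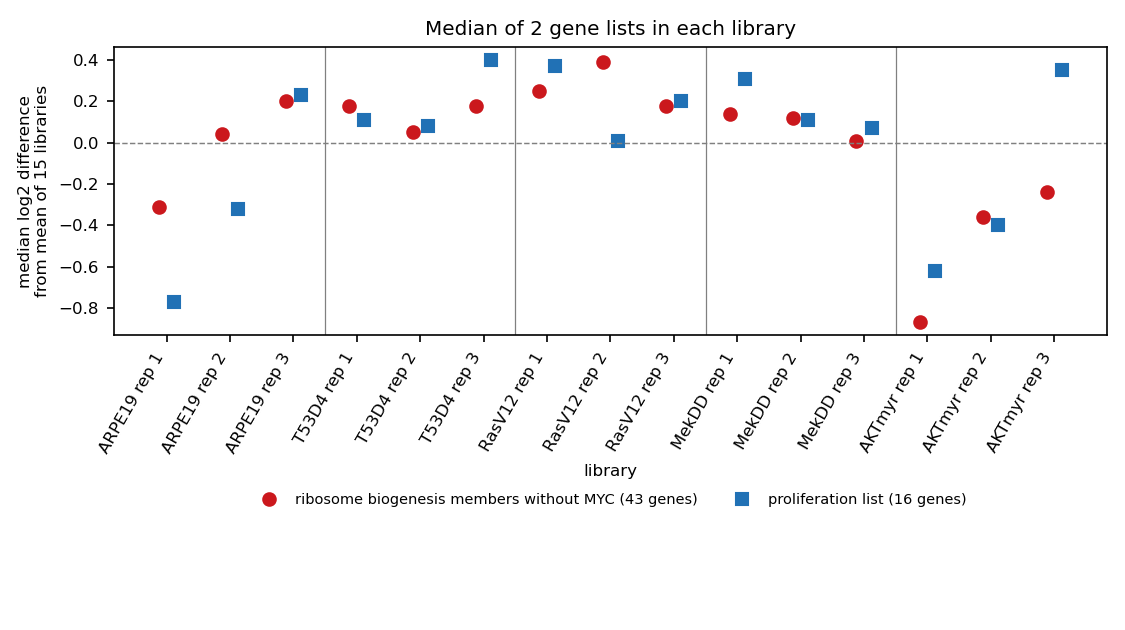
Median log2 difference from the 15-library mean (vertical axis) in each library (horizontal axis), for the 43 ribosome biogenesis genes (circles) and the 16 proliferation genes (squares). ARPE19 and AKTmyr replicate 1 are low for both lists, and AKTmyr replicate 3 is low for ribosome biogenesis (-0.24) and high for proliferation (0.35).

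The RAS line had less MYC transcript than the libraries labelled T53D4, with no excess of higher calls among the ribosome biogenesis genes. This comparison uses the same T53D4 libraries as that of AKTmyr. Against the libraries labelled T53D4, 4 of the 44 genes were higher in RasV12 and 1, MYC, was lower, where 10.8% of all genes were called higher and 13.6% lower. The members' share of higher calls was thus below that of all genes, and their median was 0.11 against 0.01. Within replicates 1, 2 and 3 the median of the 44 was 0.06, 0.31 and -0.03. MYC fell by 0.68 ± 0.17 (adjusted p = 0.00887), to 0.626 times, and did so in each replicate number (-0.74, -0.51 and -0.80). The groups of 3 libraries did not overlap for MYC, as for 2789 of all 13599 genes in the lower direction.

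The 4 higher genes were RRS1, PNO1, NOC3L and GNL3. RRS1 had 32.8, 38.3 and 26.5 CPM in RasV12, above the 3 libraries labelled T53D4 given earlier, and rose by 0.77 ± 0.25 (adjusted p = 0.0361). PNO1 had 26.3, 27.5 and 24.5 CPM in RasV12, and rose by 0.67 ± 0.19 (adjusted p = 0.0192). GNL3 (chr3:52681156-52694497), a GTPase abundant in stem and tumour cells, had 157, 147 and 150 CPM against 111, 103 and 119 CPM. It rose by 0.45 ± 0.14 (adjusted p = 0.0275). NOC3L, a factor for the movement of large-subunit precursors (chr10:94333226-94362959), had 60.5, 58.8 and 54.4 CPM against 37.4, 38.8 and 42.6 CPM and rose by 0.55 ± 0.15 (adjusted p = 0.0160). For each of the 4 the libraries did not overlap, as was the case for 14 members in the higher direction and 19.6% of all genes.

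These calls were near the threshold. With 1 library left out the number of members called higher was 2 without RasV12 replicate 1, 1 without RasV12 replicate 2, and 2, 0 and 2 without T53D4 replicate 1, 2 or 3; without all libraries of replicate 1 it was 7. MYC was called lower in each of these settings. With the replicate block MYBBP1A, a nucleolar protein that binds MYB and represses Pol I, was called too, as the 5th member higher where 16.6% of all genes were (0.46 ± 0.17, adjusted p = 0.0383 against 0.0726 without the block, range over the alternatives 0.00935 to 0.215).

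The genes of some chromosomes had shifted medians in RasV12, and 6 members lie there. The 415 tested genes of the long arm of chromosome 10 were shifted by a median of 0.31 (log2) from the libraries labelled T53D4. The median was -0.33 for the 123 genes of the short arm, 0.23 for the 352 of chromosome 20 and -0.17 for the 305 of chromosome 22. Members on the long arm of chromosome 10 are NOC3L, NOLC1 (0.37), RRP12 (0.35) and DDX21 (0.28), with a median of 0.36. NOP56 on chromosome 20 had 0.30, and PES1 on chromosome 22 had -0.10. In MekDD and AKTmyr the long arm of chromosome 10 had medians of 0.01 and 0.03. On the remaining chromosomes 38 members were left, of which 3 were higher and 1 lower, with a median of 0.08. Copy number was not measured, and its part in these values was not tested.

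In the related lists the shares called in RasV12 against the libraries labelled T53D4 are to be read beside the 10.8% of all genes called higher and 13.6% called lower. Among the MYC targets ODC1, the rate-limiting enzyme of polyamine synthesis, had the largest value, at 427 CPM against 206 CPM (rose by 1.05 ± 0.14, adjusted p = 0.000126). PPAT and EIF4A1 were the other MYC targets called, among 22 with 0 called lower. Of the other large-subunit assembly genes 5 of 49 were higher (EFL1, BRIX1, GNL2, RPF2 and DDX31) and 0 lower. EFL1, the GTPase that releases EIF6, rose by 0.77. With the replicate block these lists had 9 higher in the large-subunit list, and 11 higher and 5 lower in the small-subunit list, where 16.6% of all genes were called higher and 19.2% lower. Of the other small-subunit assembly genes 5 of 47 were higher (AATF, ESF1, RIOK2, UTP23 and WDR75) and 2 lower (RIOK3 and DHX37). In the Pol I machinery POLR1G and TAF1A were higher, and EXOSC1, DIS3 and XRN2 in the exosome list. Among the genes of these lists, EXOSC1 lies on chromosome 10 and XRN2 and ESF1 on chromosome 20, which had shifted medians in RasV12. The part of position in their calls was not tested. The proliferation list had 0 of 16 called and a median of -0.01, with DESeq2 calling 0 as well and 1 gene at an unadjusted p under 0.05. Of 13 retinal pigment epithelium markers tested 5 were lower and 0 higher, with a median of -0.87: MITF fell by 1.75 (92.5 to 27.5 CPM, adjusted p = 0.000246), PMEL by 1.54 and KRT18 by 1.08. PDGFRB, listed as a marker of other cell types, fell by 1.79, from 99.6 to 28.9 CPM. The part of these differences in the members' values was not tested.

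Active MEK gave no call among the members. For MekDD against the libraries labelled T53D4, edgeR and DESeq2 each called 0 of 44 in both directions, where edgeR called 2.27% of all genes higher and 2.83% lower, and the 1 gene at an unadjusted p under 0.05 was MYC. The median of the 44 was -0.03, against 0 over all genes. MYC had -0.43 ± 0.17 (adjusted p = 0.179). It was lower in all 3 replicate numbers (-0.59, -0.45 and -0.24). The 3 MekDD libraries did not overlap the libraries labelled T53D4 for MYC, as for 1717 of all 13599 genes in the lower direction. With the replicate block MYC was called lower, as 6.2% of all genes were (adjusted p = 0.0479, range over the alternatives 0.0479 to 0.443). The largest other values were -0.36 ± 0.21 for EBNA1BP2, a large-subunit factor, and 0.28 ± 0.23 for LYAR. The MYC network, other MYC targets and the wider ribosome lists had 0 called in either direction with edgeR and DESeq2, and at most 3 genes of a list (small-subunit assembly) at an unadjusted p under 0.05. The proliferation list had 0 by each of these measures.

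The 3 oncogene lines were then compared with each other. These contrasts reuse the same libraries as those above, so they are not independent of them. RasV12 against MekDD gave 1 member higher and 0 lower, where 7.17% of all genes were called higher and 8.33% lower. It was RRP9, a protein of the U3 snoRNP, with 31.1, 30.7 and 33.8 CPM in RasV12 and 22.6, 21.2 and 23.0 CPM in MekDD. RRP9 rose by 0.52 ± 0.16 (adjusted p = 0.0435) and was 0.46, 0.53 and 0.56 higher in replicates 1, 2 and 3. The call was lost without any 1 of the 6 libraries (range over the alternatives 0.0163 to 0.128). Without replicate 2 or 3 of RasV12 or of MekDD 0 members were called, and without replicate 1 of either line 1 was called, which was not RRP9. Without all libraries of replicate 1 the count was 7. With the block 6 members were higher (RRP9, MYBBP1A, RRP12, PNO1, RRS1 and NOC3L) and PPAN was lower, where 12.5% of all genes were called higher and 13.9% lower. DESeq2 called 6 higher and 0 lower, beside 1260 higher and 1371 lower of all 13599 genes. MYC differed by -0.24 ± 0.17. ODC1 was again the steepest of the MYC targets, at 427 CPM against 192 CPM in MekDD.

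RasV12 and AKTmyr, the 2 lines labelled transformed, were the farthest apart. Of the 44 genes 34 were higher in RasV12 and 0 lower, where 19.6% of all genes were called higher and 20.7% lower. The median was 0.79, against 0.01 over all genes, and 35 of the 44 did not overlap, as for 24.1% of all genes. Higher genes made up 5 of 6 of Pol I transcription, 6 of 7 snoRNP genes, 8 of 11 of small-subunit assembly, 11 of 14 of large-subunit assembly and 3 of 5 other nucleolar genes. RRS1 was 3.85 times as high in RasV12 (log2 fold change 1.94 ± 0.26, adjusted p = 6.63e-05), LYAR had 1.32 ± 0.24, and RRP12 had 1.29 ± 0.22. NOLC1, NLE1, WDR74, MYBBP1A and RRP9 had log2 fold changes from 1.02 to 1.08, and GNL3 had 1.00 ± 0.14. MYC itself rose by 0.62 ± 0.17 (adjusted p = 0.00906), by 0.67, 0.63 and 0.56 within replicates. At the other end PPAN had -0.45 ± 0.32, POLR1A 0.21 ± 0.21 and TSR1 0.29 ± 0.18, none of them called.

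The count for RasV12 against AKTmyr was 29 without AKTmyr replicate 1, 29 without RasV12 replicate 2, and 30 without all libraries of replicate 1. On chromosomes other than 10, 20 and 22 it was 28 of 38. In the wider lists 31 of 47 other small-subunit, 32 of 49 other large-subunit and 5 of 13 other snoRNP genes were higher. Of the 20 genes listed as Pol I machinery 8 were higher, PPRC1 among them. The share of all genes called higher was 19.6%. RIOK3 was the only gene of these 4 lists called lower. Proliferation had 3 of 16 higher (RRM2, MCM7 and AURKB), a share close to that of all genes. Its median difference was 1.02, 0.36 and -0.07 within replicates 1, 2 and 3, beside 1.15, 0.75 and 0.49 for the 44 genes.

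MekDD and AKTmyr, the lines with active MEK and active AKT, were also set against each other. Of the 44 genes, 26 were higher in MekDD and 0 lower, where 12.7% of all genes were called higher and 13.5% lower. The replicate block called 34 of the 44 higher, beside 2756 of all 13599 genes. The median was 0.59, against 0.01 over all genes, and 32 of the 44 did not overlap, as for 20.2% of all genes. Within replicates 1, 2 and 3 the members' median was 1.00, 0.46 and 0.29, beside 0.93, 0.52 and -0.17 for the proliferation list, of which MCM2, MCM3 and MCM7 were called higher. The part of proliferation in this difference was not tested either. RRS1 had 23.5, 21.1 and 15.2 CPM in MekDD and rose by 1.24 ± 0.25 (adjusted p = 0.00323). LYAR, NLE1 and WDR74 rose by 1.04, 0.91 and 0.91. MYC rose by 0.87 ± 0.17 (adjusted p = 0.00233). NHP2 (0.23), TSR1 (0.22) and FTSJ3 (0.15) had the lowest values of their roles and were not called. Without AKTmyr replicate 1 the count was 13, without MekDD replicate 1 it was 15, without MekDD replicate 2 it was 16, and without all libraries of replicate 1 it was 13.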

How the data were processed

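Poly(A) RNA of 15 libraries was sequenced as read pairs of 150 bases, per the labels. Analysis began from the authors' deposited table of raw read counts. The tools named in the submitters' processing notes include HISAT2 2.1.0 and featureCounts 1.6.4, with hg38; whether counting used strand is not given in the sources used here, and 17 members overlap a gene on the other strand. Gene positions and exon lengths came from the annotation the authors deposited, on hg38.

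The 7 construct rows were left out of fits and library sizes. Counts were fitted with edgeR 4.0.16 (quasi-likelihood, TMM factors, filterByExpr with a minimum count of 10, line as the only term) over all 15 libraries, in R 4.3.3. P-values were adjusted by Benjamini-Hochberg over 13599 genes in each of 7 comparisons, and a gene was called at an adjusted p under 0.05. Adjusted p-values in the text are from this test unless another is named. CPM used TMM-scaled library sizes. Alternatives were DESeq2 1.42.0, other scaling, no filter, the replicate number as a block, only the 2 lines compared, and libraries left out; leaving out all of replicate 1 was added after seeing the data. Same-numbered libraries deviated together (correlations 0.14 to 0.64) in every comparison other than RasV12 against AKTmyr. Total counts of the members that the block changes are therefore printed, and those of the other lists only in part. On simulated counts for AKTmyr against T53D4 with 13599 genes, 26 of 50 genes lowered to 0.5 times were called, 5 of 50 lowered to 0.667 times, and 1 of 13238 unchanged genes. Far fewer genes were changed in the simulation than the 2738 called in the data. Its same-numbered libraries shared no deviation either, so these rates need not hold for the members.

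The members and lists were chosen with earlier results of these data known. Genes were named by rule: MYC, the highest and lowest member of each role, up to 12 called members by adjusted p, members on chromosomes 10, 20 and 22 for RasV12, and up to 3 called genes of each other list with at least 5 CPM. Exceptions are stated or fill a count of 5 or fewer.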

Additional observations from a re-analysis of the deposited data

How the results depend on the processing

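T53D4 here means the libraries so labelled. Of 115 single-gene results, 20 changed sign under at least 1 of the alternatives, and 0 of these had been called. Without the other 3 lines, 13 members were lower in AKTmyr than in T53D4 (all genes called 1449 against 2738) and 17 were higher in MekDD than in AKTmyr (2349 against 3560), 6 were higher in RasV12 than in MekDD, and 2 genes in all differed between T53D4 and ARPE19. Under the replicate block, members called were 39 lower in AKTmyr than in T53D4, 1 lower in MekDD than in T53D4, and 6 higher and 1 lower in RasV12 than in MekDD; all genes called came to 4738, 1589 and 3588, with 5481 for MekDD against AKTmyr and 232 for T53D4 against ARPE19. For RasV12 against AKTmyr the correlations were 0.25, 0.34 and 0.03, and the block called 38 members, against 34, and FBL (adjusted p = 0.0161, against 0.0694). It moved no other count of members by over 1.5 times and changed no call of a named member beyond those given here or in the results. DESeq2 called 1116 genes for MekDD against T53D4, 188 for T53D4 against ARPE19 (41.0% of them higher, against 23.8%), and 6 members for RasV12 against MekDD, where plain library sizes gave 0.

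With libraries left out, all genes called ranged from 1611 to 2669 (AKTmyr against T53D4), 2271 to 3698 (MekDD against AKTmyr), 360 to 600 (MekDD against T53D4), 1352 to 2297 (RasV12 against MekDD) and 1 to 7 (T53D4 against ARPE19). Members called ranged from 10 to 29, 13 to 27, 0 to 0, 0 to 7 and 0 to 0 in the same order, and 0 to 7 were higher in RasV12 than in T53D4. Without a library its line keeps 2, whose spread is pooled over lines.

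Log2 fold changes with libraries left out ranged as follows. T53D4 against ARPE19: NHP2 -0.13 to 0.09 (0.00 with plain library sizes), NPM1 -0.28 to 0.03, POLR1A -0.15 to 0.06 and PPAN -0.60 to 0.05. RasV12 against T53D4: FBL -0.16 to 0.03, HEATR1 -0.20 to 0.03 and PUS7 -0.22 to 0.10. MekDD against T53D4: NOLC1 -0.07 to 0.12, NOP58 -0.01 to 0.18, PNO1 -0.04 to 0.29, PPAN -0.19 to 0.58 and PUS7 -0.16 to 0.22. AKTmyr against T53D4: PNO1 -0.34 to 0.16 and PPAN -0.30 to 0.34. RasV12 against MekDD: HEATR1 -0.11 to 0.12 (-0.02 with plain library sizes, 0.00 with the block), POLR1A -0.21 to 0.06 and PUS7 -0.24 to 0.06. AKTmyr as reference: POLR1A -0.04 to 0.43 in RasV12, FTSJ3 -0.02 to 0.29 and TSR1 -0.03 to 0.45 in MekDD. The cause was not tested for any of these.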

Other observations

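Of 12 listed genes of MYC's own network of partners and antagonists 10 were tested. In AKTmyr against the libraries labelled T53D4, 1 was higher and 1 lower, where 9.91% and 10.2% of all genes were, and in RasV12 2 were higher and 1 lower, where 10.8% and 13.6% were, so the counts are near those of all genes. In AKTmyr against the libraries labelled T53D4 MAX, the obligate partner of MYC, was lower (58.1 to 43.4 CPM, fell by 0.42 on the log2 scale, edgeR adjusted p = 0.0210). MYCL, a paralogue of MYC, was higher at a low level, 1.25 CPM in AKTmyr and 1.95 CPM in RasV12 against 0.368 CPM in the libraries labelled T53D4 (adjusted p = 0.00392 and 0.000208); it was named after its values were seen. MLX, which pairs with the MondoA family, was higher in RasV12 than in the libraries labelled T53D4 (53.8 against 32.2 CPM, adjusted p = 0.000728). MXD4, an antagonist of MYC, was lower there (38.6 against 67.1 CPM, adjusted p = 0.0356), and both MXD4 and the antagonist MXI1 were lower in RasV12 than in AKTmyr, MXI1 at 44.3 against 87.6 CPM (adjusted p = 0.00652).

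Among the listed MYC targets 0 of 22 were called higher in AKTmyr than in the libraries labelled T53D4 (also with DESeq2), TFRC included. Against the other oncogene lines TFRC, the transferrin receptor that brings iron into cells, was at 318 CPM in AKTmyr, 141 CPM in MekDD and 183 CPM in RasV12, and was lower in MekDD than in AKTmyr by a log2 difference of -1.17 ± 0.26 (adjusted p = 0.00565) and in RasV12 than in AKTmyr by -0.80 (adjusted p = 0.0251).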
